A study of Mus musculus with 10 samples.

Results

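Esm1, Col18a1, Wisp1, Cib2 and Adam8 are 5 of the 23992 gene symbols in an RNA sequencing study of mouse regulatory T cells, and they encode secreted and extracellular matrix proteins, a membrane protease and an intracellular integrin-binding protein. They were selected on their normalised read counts in the lung, which had been seen to be higher in regulatory T cells with Crlf2 deleted than in control cells, so the lung difference is given below as a description without a test. The SEs and 95% intervals printed for these genes in the lung show the spread between libraries only. Because the same values chose the genes, these intervals do not have 95% coverage, and the differences may be overstated. The comparison of spleen cells cultured without and with TSLP did not enter the choice of genes and was tested. All 5 symbols were found, each represented by the transcript row with the most reads.

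The study holds 10 libraries in 4 groups, all from C57BL/6J mice. Natural regulatory T cells (nTregs) from wild-type spleen spent 24 h in culture with anti-CD3 and anti-CD28 as a T cell receptor (TCR) stimulus, either alone (2 libraries) or with thymic stromal lymphopoietin (TSLP, 2 libraries). Regulatory T cells from allergic lung tissue of ovalbumin-immunized mice came from Foxp3YFP-Cre animals (lung control, 3 libraries) and from Crlf2 fl/fl Foxp3YFP-Cre animals (lung Crlf2-deleted, 3 libraries). Both lung groups therefore carried Cre, expressed from the Foxp3 locus together with the fluorescent protein YFP, and only the second carried the floxed Crlf2 alleles. The labels call the first genotype wild-type and the second a conditional knock-out. The labels give no ages or immunization schedule nor say whether replicates came from separate animals or cultures. The p-values therefore cover the spread between these libraries alone, and that spread may be technical.

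TSLP is a cytokine released by epithelial cells at barrier surfaces, and its receptor pairs the CRLF2 chain with the interleukin-7 receptor alpha chain to signal through STAT5. Extracellular matrix is built from collagens, laminins and proteoglycans, remodelled by metalloproteases, and read by cells through integrins and other surface receptors. The 5 genes sit at different points of that system: a structural collagen, a soluble proteoglycan, a matricellular signal, a membrane protease and an intracellular integrin-binding protein.

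Reads assigned to genes ranged from 27237313 to 51671901 in the spleen libraries and from 1439675 to 18349039 in the lung libraries, and control replicate 2 was the shallowest. Crlf2 (chr5:109554709-109559128, minus strand, mm10) checked the labels: it stood at 92.6, 146 and 105 CPM (normalised counts scaled to the library size, after TMM within the tissue) in lung control and at 9.05, 6.72 and 3.55 CPM in lung Crlf2-deleted libraries, or -4.16 on the log2 scale (SE 0.36, adjusted p = 0.00465 by edgeR's quasi-likelihood test). Crlf2 was also lower with TSLP in the spleen, at 55.8 and 61.4 CPM with TCR alone against 44.0 and 42.8 CPM with TSLP (log2 fold change -0.43, adjusted p = 0.00799 by edgeR), a call that was lost under 7 of 17 alternative settings. Among the lung libraries, control replicate 3 stood apart with more reads of B cell, natural killer (NK) cell, neutrophil and macrophage markers, and results are given with and without it. Treg markers (Foxp3, Il2ra and others, 8 of 8 detected in each lung library) summed to 2139 to 3818 CPM in lung control and 3876 to 4216 CPM in lung Crlf2-deleted libraries.

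The genes lie on 5 different chromosomes of the mm10 (GRCm38) build. Col18a1 covers chr10:77052178-77166530 on the minus strand and Esm1 chr13:113209659-113218104 on the plus strand. Wisp1, listed as Ccn4 in RefSeq, covers chr15:66891369-66923201 on the plus strand. Cib2 lies at chr9:54544794-54560190 and Adam8 at chr7:139978932-139995207, both on the minus strand. No source used here says whether reads were counted by strand, so reads of overlapping genes cannot be separated: Esm1 lies within the noncoding gene Gm41069, Sh2d7 shares 237 bases with Cib2, the pseudogene Gm7775 lies in Col18a1, and Gm16201 and Mir7062 overlap Adam8. None of these 5 overlapping genes was among the genes past the filter on low counts in the lung. This also holds for a gene without a deposited row, so low counts of the overlapping genes were not shown. The values below therefore refer to the deposited rows of the 5 genes, with this limit.

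Promoter windows of 300 bases, from 250 before to 50 after a RefSeq transcript start (build GRCm38.p6), matched 4 of the 5 symbols, and Wisp1 was not matched. They are shown as a description of these 4 genes, whose shared pattern over the libraries follows in part from their choice. The sequence at their starts differed widely. Capitals mark GC boxes (GGGCGG, or CCGCCC on the other strand) and the forkhead word TGTTTAC (or GTAAACA on the other strand), and each sequence runs 5′ to 3′ on the gene's own strand. The windows are chr13:113209409-113209708 (plus strand) for Esm1, chr10:77166481-77166780 (minus) for Col18a1, chr9:54560141-54560440 (minus) for Cib2 and chr7:139992513-139992812 (minus) for Adam8. The first 3 lie at the outermost start of the gene, and the Adam8 window lies at a RefSeq start inside the gene. The positions used here are those of whole genes, so the start of each transcript row was not shown.
Esm1: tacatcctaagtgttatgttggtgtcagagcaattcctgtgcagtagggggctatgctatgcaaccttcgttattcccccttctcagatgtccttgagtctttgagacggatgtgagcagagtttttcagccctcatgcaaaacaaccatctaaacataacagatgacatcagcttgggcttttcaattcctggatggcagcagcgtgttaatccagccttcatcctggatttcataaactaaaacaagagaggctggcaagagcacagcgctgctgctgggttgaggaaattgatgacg
Col18a1: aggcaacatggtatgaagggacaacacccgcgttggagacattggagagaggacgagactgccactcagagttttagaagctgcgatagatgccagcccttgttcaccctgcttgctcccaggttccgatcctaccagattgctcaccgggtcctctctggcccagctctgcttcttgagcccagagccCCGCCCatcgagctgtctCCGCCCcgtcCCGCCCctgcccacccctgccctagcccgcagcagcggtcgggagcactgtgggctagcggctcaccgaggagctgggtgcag
Cib2: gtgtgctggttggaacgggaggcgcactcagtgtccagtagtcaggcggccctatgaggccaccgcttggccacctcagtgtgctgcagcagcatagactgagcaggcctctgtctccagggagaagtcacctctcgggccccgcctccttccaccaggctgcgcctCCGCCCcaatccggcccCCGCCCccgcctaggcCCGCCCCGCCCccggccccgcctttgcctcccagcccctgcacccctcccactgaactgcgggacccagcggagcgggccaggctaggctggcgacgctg
Adam8: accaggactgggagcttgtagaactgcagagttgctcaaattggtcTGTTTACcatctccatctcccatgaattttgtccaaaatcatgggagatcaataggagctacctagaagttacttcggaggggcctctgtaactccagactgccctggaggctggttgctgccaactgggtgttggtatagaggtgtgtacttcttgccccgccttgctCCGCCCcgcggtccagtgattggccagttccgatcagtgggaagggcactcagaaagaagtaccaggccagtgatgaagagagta
The Cib2 window was GC-rich at 71.3% G+C, the 92.2 percentile of 32851 mouse promoter windows of that length, with 20 CpG dinucleotides and 4 GC boxes, of which the last pair overlapped. The Col18a1 window held 63.3% G+C, 16 CpG dinucleotides and 3 GC boxes. The Esm1 window was poorer, at 46.3% G+C with 5 CpG dinucleotides and 0 GC boxes. The Adam8 window held 52.3% G+C, 1 GC box and 1 forkhead word. A GC box occurred in 35.7% of all windows and the forkhead word in 3.65%. None of the 4 windows held the STAT word TTCNNNGAA (8.30% of all windows), the AP-1 word TGANTCA (7.81%) or the TATA word TATAAA (13.6%). The NFAT word GGAAA, found in 61.3% of windows, occurred once among the 4, in Esm1, and the RUNX word TGTGGT (16.8% of windows) was in none. All words were searched on both strands, and a match or its absence describes these letters only. The NF-kB word (GGG, any 5 bases, then CC), present in 50.8% of windows, had 2 matches in Cib2 and 0 in the other 3. No word searched was in all 4 windows shown. Col18a1 had another window, at a downstream start (chr10:77113656-77113955, minus strand), that is not shown. That window held 59.7% G+C, 0 GC boxes, 1 RUNX match and 1 NF-kB match.

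Col18a1 encodes the alpha chain of collagen XVIII, a basement membrane proteoglycan whose C-terminal fragment is endostatin, an inhibitor of blood vessel growth. In lung control libraries it stood at 4.14, 11.6 and 6.22 CPM (replicates 1 to 3) and in lung Crlf2-deleted libraries at 61.1, 71.6 and 90.3 CPM. Every Crlf2-deleted library was above every control library, and the lowest of them was 5.26-fold above the highest control. The means were 7.33 ± 3.86 CPM (SD, n = 3) and 74.3 ± 14.8 CPM (SD, n = 3), a ratio of 10.1 and a log2 fold change of 3.52 (SE 0.35, 95% interval 2.71 to 4.33). The highest control value rested on 17 reads, in the shallowest library, and its counting interval reached from 6.77 to 18.6 CPM. In bulk samples, fewer cells of a type and less RNA per cell cannot be told apart, and this holds for all differences below.

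The files list Col18a1 in more than one transcript row, whose reads overlap. The row used here is 5044 bases long, and a longer row has 5628 bases. Which of the gene's starts each row begins at was not shown. The row used here held 25, 32 and 59 more reads than the longer row in lung Crlf2-deleted libraries, of 628, 895 and 1732 reads in all. In lung control libraries the difference was 1, -1 and 1 reads, and in the 4 spleen libraries it was 0. The deposited rows do not show which reads fall in exons that both rows share, so the use of either start was not measured.

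Esm1 encodes endocan, a small soluble proteoglycan known as a product of endothelial cells. It stood at 1.34, 3.42 and 1.79 CPM in lung control libraries (10, 5 and 19 reads) and at 24.3, 33.7 and 25.6 CPM in lung Crlf2-deleted libraries (250, 421 and 490 reads). The groups did not overlap, and the spread within the Crlf2-deleted group was small beside the distance between groups. The mean went from 2.18 ± 1.09 to 27.9 ± 5.08 CPM (SD, n = 3 each), a ratio of 12.8 and a log2 fold change of 3.87 (SE 0.40, 95% interval 2.96 to 4.78), the largest of the 5 genes.

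Wisp1 encodes CCN4, a secreted matricellular protein known as a target of Wnt signalling. It stood at 1.47, 5.47 and 4.06 CPM in lung control libraries and at 15.3, 36.1 and 19.9 CPM in lung Crlf2-deleted libraries. Its replicates were the most uneven of the 5 genes: Crlf2-deleted replicate 2 was well above the other 2 replicates, and control replicate 1 well below the other controls. The means were 3.66 ± 2.03 and 23.8 ± 10.9 CPM (SD, n = 3 each), which is a log2 difference of 2.81 (SE 0.55, 95% interval 1.57 to 4.06). The groups still did not overlap, with the lowest Crlf2-deleted library 2.79-fold above the highest control.

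Adam8 encodes a membrane-anchored metalloprotease and disintegrin that sheds cell surface proteins and is found on leukocytes. Its normalised count was the highest of the 5 in control lung cells, at 116, 116 and 132 CPM, and stood at 318, 287 and 342 CPM in lung Crlf2-deleted libraries. The means were 121 ± 9.38 and 316 ± 27.2 CPM (SD, n = 3 each), which is a log2 difference of 1.38 (SE 0.13, 95% interval 1.09 to 1.67). Its difference was the smallest of the 5 and had the smallest SE, and each lung library held at least 169 Adam8 reads.

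Cib2 encodes a small calcium-binding protein that binds integrin tails inside the cell and is known from the mechanosensing of hair cells. It stood at 6.14, 7.52 and 8.96 CPM in lung control libraries and at 46.1, 62.4 and 54.5 CPM in lung Crlf2-deleted libraries. The libraries of each group lay close together and the groups were 5.15-fold apart at their nearest values. The means were 7.54 ± 1.41 and 54.3 ± 8.14 CPM (SD, n = 3 each), which is a log2 difference of 2.84 (SE 0.24, 95% interval 2.29 to 3.39).

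The groups did not overlap for 5 of 5 genes, a direction that the choice of the genes fixed, and nothing is read from this count. Among all 12717 genes tested in the lung, 10.5% were higher in every Crlf2-deleted library than in every control library, and 0.771% (98 genes) were called higher by edgeR at an adjusted p of 0.05. The median log2 fold change was 2.84 over the 5 genes and -0.04 over all genes tested, a gap that restates how the genes were chosen. That the lung intervals above leave out 0 is likewise not read as a result.

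**Figure D1:**
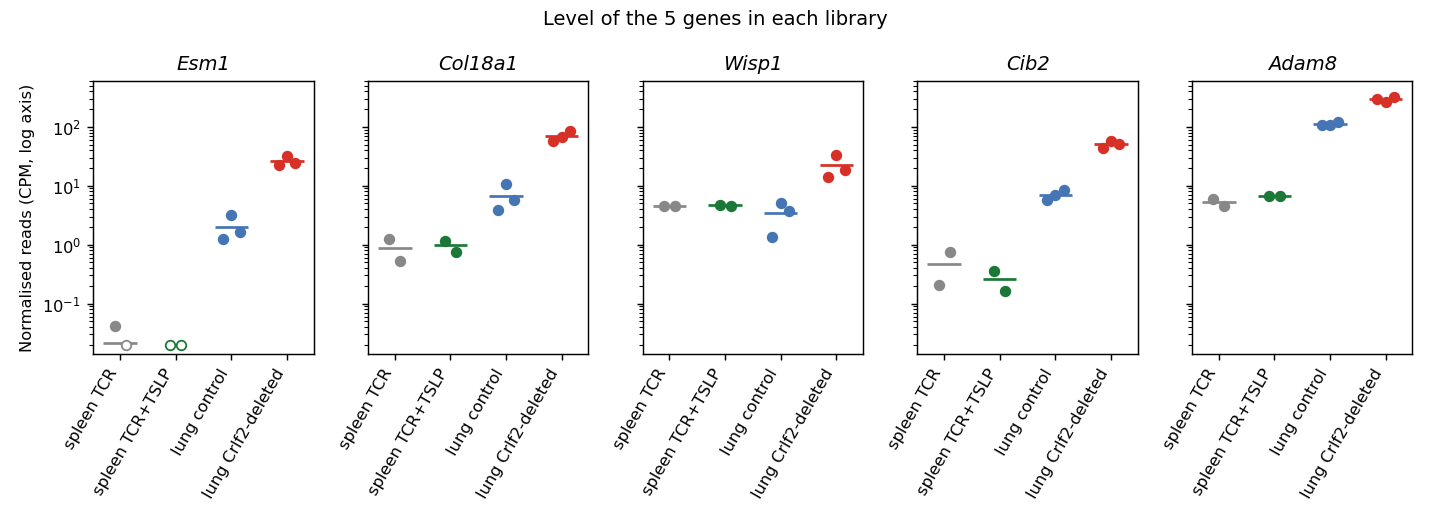
Level of each gene in the 10 libraries, in CPM scaled over all libraries on a log axis, with 1 point per library, a bar at the group mean and open circles for libraries with 0 reads. For all 5 genes the 3 lung Crlf2-deleted libraries sit above every other library, and Wisp1 is the gene whose lung control libraries (1.36 to 5.03 CPM) span its spleen levels.

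Levels over the 4 groups were compared as CPM scaled over all 10 libraries, as a description, since tissue, culture and possibly library kit differed between spleen and lung. Every lung Crlf2-deleted library was above every other library for 5 of 5 genes, in part by the choice of the genes, and this held for 5.91% of the 14571 genes past the filter over the 4 groups. Every spleen library was below every lung control library for 4 of 5 genes, as for 26.5% of those 14571 genes. Esm1 was at 0 to 0.042 CPM in TCR cultures and had 0 reads in both TSLP cultures, against 1.24 to 3.14 CPM in lung control and 22.7 to 31.6 CPM in lung Crlf2-deleted libraries. Adam8 was at 4.60 to 6.07 CPM with TCR alone, 6.82 to 6.83 CPM with TSLP, 106 to 122 CPM in lung control and 269 to 322 CPM in lung Crlf2-deleted libraries, the one gene whose 4 groups did not overlap at all. Cib2 was at 0.211 to 0.746 CPM with TCR, 0.161 to 0.361 CPM with TSLP, 5.70 to 8.31 CPM in lung control and 43.1 to 58.5 CPM in lung Crlf2-deleted libraries. For Cib2, Col18a1 and Esm1 the spleen groups, next to each other in the order, overlapped or held too few reads to be ordered.

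Wisp1 differed from the other 4 genes in that its spleen levels lay inside the range of its lung control levels. It was measured at 4.47 to 4.51 CPM with TCR alone and 4.59 to 4.72 CPM with TSLP, inside the 1.36 to 5.03 CPM of lung control, while lung Crlf2-deleted libraries held 14.3 to 33.8 CPM. Col18a1 followed the common order, with 0.526 to 1.26 CPM in TCR cultures, 0.765 to 1.17 CPM in TSLP cultures, 3.84 to 10.7 CPM in lung control and 57.1 to 85.0 CPM in lung Crlf2-deleted libraries. Per kilobase of transcript, the mean CPM in lung Crlf2-deleted libraries was 97.5 for Adam8, 69.2 for Cib2, 13.8 for Col18a1, 12.4 for Esm1 and 4.44 for Wisp1. Adam8 and Cib2 were thus the most abundant transcripts of the 5 per unit length, and Wisp1 the least. The deposited RPKM, which also divide by transcript length but use a larger library total, gave the order Adam8 (23.9), Cib2 (16.9), Col18a1 (3.40), Esm1 (3.02) and Wisp1 (1.07) as means over the same libraries.

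In the spleen cultures, the comparison the choice of genes had not used, 0 of the 4 members that could be tested were called with TSLP (edgeR quasi-likelihood test, TCR with TSLP against TCR alone). This count of 0 stands beside 45.8% of all 13214 genes tested that were called in either direction (2999 higher, 22.7%, and 3051 lower, 23.1%). At an unadjusted p of 0.05 the count was also 0, and DESeq2 called 0 of the 4. The median log2 fold change of the 4 was 0.02, against 0.01 over all genes tested. The intervals below show which sizes of change the data allow.

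Wisp1 had the most even values, at 4.14 and 4.07 CPM with TCR alone and 4.20 and 4.04 CPM with TSLP (102 to 228 reads per library). The groups overlapped, and the log2 fold change was 0.003 with a 95% interval of -0.42 to 0.42 (adjusted p = 0.990 by edgeR). This was the narrowest interval of the 4 genes. Adam8 stood at 5.58 and 4.19 CPM with TCR alone and 6.07 and 6.00 CPM with TSLP. Both TSLP libraries were above both TCR libraries, as for 38.1% of all genes tested (37.3% lay lower in both), and the log2 fold change of 0.30 (interval -0.13 to 0.74) was not called (adjusted p = 0.221 by edgeR). It was called under 2 alternatives: with library totals as the only scaling (0.53, adjusted p = 0.0449 by edgeR), which moved the median of all genes by 0.229 in the same direction, and without TCR replicate 1 (0.53, adjusted p = 0.00812 by edgeR).

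Col18a1 was close to the lower limit of measurement in spleen cultures, at 1.16 and 0.479 CPM with TCR alone and 1.04 and 0.673 CPM with TSLP (12 to 39 reads). The groups overlapped, with a log2 fold change of 0.04 and an interval of -1.06 to 1.14 (adjusted p = 0.957 by edgeR). Cib2 held 5 and 17 reads with TCR alone and 12 and 8 reads with TSLP, or 0.194 and 0.678 CPM against 0.321 and 0.142 CPM. Its log2 fold change of -0.97 had an interval of -2.60 to 0.65 (adjusted p = 0.291 by edgeR), a span that these read numbers could not narrow. With a trend over transcript length removed, the Cib2 value was -0.28 (adjusted p = 0.774 by edgeR). Without TCR replicate 1, which had 5 reads, Cib2 was called lower (-1.64, adjusted p = 0.0126 by edgeR), and without TCR replicate 2 its sign turned (0.17). Esm1, with 1 read in 1 TCR library and 0 in the other 3, did not pass the filter, and 3 counts as a limit allow up to 0.110 CPM in the other TCR library and 0.0861 and 0.0581 CPM in the TSLP libraries, for counting error only. A fall of Esm1 with TSLP was not detectable at this depth.

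Some markers of other cell types were lower with TSLP in the same spleen libraries. B cell markers summed to 103.7 to 110.6 CPM with TCR alone and 69.1 to 69.5 CPM with TSLP, with 4 of 5 called lower by edgeR. CD8 T cell markers summed to 33.0 to 34.0 CPM and 19.5 to 20.4 CPM, with 2 of 2 called lower, and dendritic cell markers to 3.75 to 5.07 CPM and 2.51 to 2.87 CPM, with 2 of 4 called lower. Over the 12 lists, Treg markers included, 1 marker was called higher and 15 lower, where 22.7% and 23.1% of all genes tested were called. Of these, 1 higher and 2 lower were Treg markers. The fibroblast, macrophage, NK cell and mast cell or basophil lists had 0 called. Neutrophil markers summed to 19.6 to 49.5 CPM and 11.3 to 11.97 CPM, and endothelial markers, mostly Pecam1 and Egfl7, to 46.9 to 47.9 CPM and 43.5 to 45.3 CPM. Macrophage markers were low in all 4 cultures, at 4.81 to 6.00 CPM. Their part in the spleen values of the 5 genes was not tested.

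**Figure D2:**
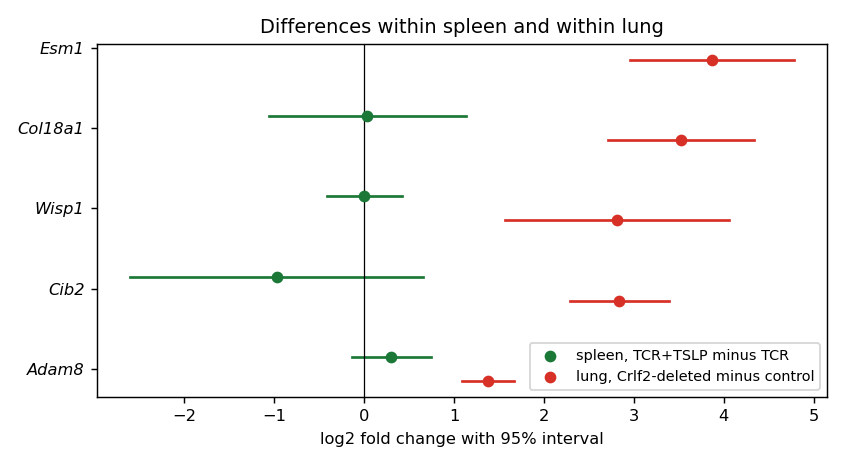
Log2 fold change of each gene with its 95% interval, in spleen (TCR with TSLP minus TCR alone, Esm1 not tested) and in lung (Crlf2-deleted minus control, shown as a description because it chose the genes). The 4 spleen intervals include 0 and those of Cib2 and Col18a1 are the widest, while the lung values run from 1.38 for Adam8 to 3.87 for Esm1. The lung intervals show the spread between libraries and are not a test, since the same values chose the genes.

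Because Esm1 and Col18a1 are well known from blood vessels, and Adam8 from myeloid cells, markers of the other cell types of the lung were measured in the same libraries. Endothelial markers (12 measured) summed to 100.4, 124.4 and 137.9 CPM in lung control and to 93.2, 79.5 and 79.3 CPM in lung Crlf2-deleted libraries. Most of that sum was Pecam1, which leukocytes also express (62.7 to 120 CPM in the lung libraries). Without Pecam1 the other 11 markers summed to 29.0, 4.78 and 48.9 CPM in lung control and to 19.8, 16.8 and 11.01 CPM in lung Crlf2-deleted libraries, so the groups overlapped. Emcn and Robo4 had 0 reads in all 10 libraries, Tek had 0 reads in all 3 Crlf2-deleted libraries, and Cdh5 was at 0 to 1.07 CPM there. Vwf, the von Willebrand factor gene, was unlike the other markers, at 0.801, 1.37 and 18.6 CPM in lung control and 10.99, 14.2 and 8.97 CPM in lung Crlf2-deleted libraries. The part of endothelial RNA in the lung differences was not tested.

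Fibroblast markers (10 measured) summed to 9.35, 2.05 and 43.2 CPM in lung control and 9.43, 1.76 and 0.209 CPM in lung Crlf2-deleted libraries, and Lum had 0 reads in every library. The groups overlapped in this sum. Lung epithelial markers (11 measured) were abundant, summing to 16630 to 79500 CPM in control and 2305 to 18160 CPM in Crlf2-deleted libraries, with Scgb1a1, a club cell secretory protein gene, giving 23323 to 573926 reads in control libraries. The part of fibroblast or epithelial RNA in the lung differences was not tested.

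Macrophage and monocyte markers (12 measured) summed to 321 and 411 CPM in lung control replicates 1 and 2 and to 4600 CPM in replicate 3, against 1040, 1078 and 1060 CPM in lung Crlf2-deleted libraries. The Crlf2-deleted libraries thus stood above 2 of the 3 controls, and control replicate 3 stood above all of them. Lyz2, the most abundant of these markers, showed the same order, at 230, 309 and 3735 CPM in control and 815, 817 and 836 CPM in Crlf2-deleted libraries. The part of macrophage RNA in the lung differences was not tested.

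The other lists set control replicate 3 apart from the 5 other lung libraries. B cell markers summed to 332 CPM there and to 13.3 to 25.5 CPM in the other 5, neutrophil markers to 420 CPM against 44.2 to 50.6 CPM, and NK cell markers to 96.3 CPM against 0.782 to 5.47 CPM. Dendritic cell markers summed to 138 CPM against 20.7 to 30.4 CPM, mast cell or basophil markers to 95.8 CPM against 3.76 to 6.84 CPM, eosinophil markers to 57.0 CPM against 8.46 to 20.5 CPM, and CD8 T cell markers to 38.4 CPM against 7.88 to 23.0 CPM. Without control replicate 3, the lung log2 fold changes were 3.91 for Esm1, 3.58 for Col18a1, 3.20 for Wisp1, 3.05 for Cib2 and 1.45 for Adam8, all at least as large as with it. In edgeR, 0 markers of any of the 12 lists were called in the lung. At an unadjusted p of 0.05, 2 Treg markers were higher and 10 markers of the other lists were lower. DESeq2 called 1 Treg marker higher, and 1 lung epithelial and 1 B cell marker lower.

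**Figure D3:**
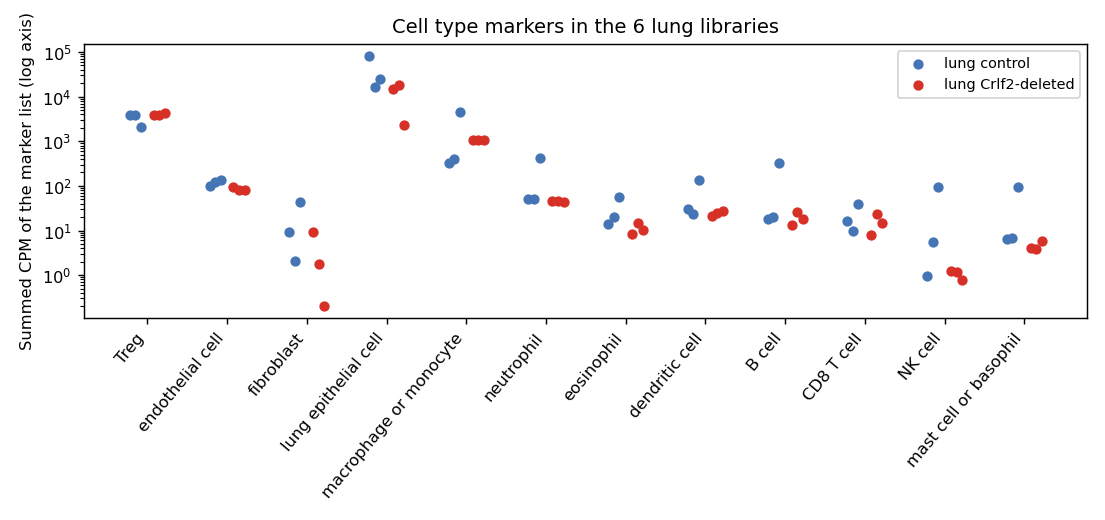
Summed CPM of 12 lists of cell type markers in the 6 lung libraries, on a log axis, with 1 point per library (replicates 1 to 3 from left to right within each colour). Control replicate 3 is the highest library for macrophage, neutrophil, B cell and NK cell markers. The Crlf2-deleted libraries are the lowest for endothelial markers, at 79.3 to 93.2 CPM, a sum that is mostly Pecam1. Without Pecam1 the groups overlap, and control replicate 2 is the lowest at 4.78 CPM.

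Other genes of the same systems were taken from 6 lists that do not hold the 5 genes (217 genes in all). In the lung, 2 of 127 tested were called higher and 1 lower by edgeR, beside 0.771% and 1.01% of all genes tested. In the spleen, 28 of 120 were called higher and 21 lower with TSLP, beside 22.7% and 23.1% of all genes. These counts lie near the shares of all genes, and rose and fell below mean called by edgeR at an adjusted p of 0.05.

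Basement membrane and collagen genes, the structural partners of Col18a1, had 0 of 20 called in the lung (0 higher and 2 lower at an unadjusted p of 0.05, 1 lower by DESeq2), with a median log2 fold change of -0.25. With TSLP in the spleen, 3 of 17 rose and 2 fell, with a median of 0.04. Plod2, a lysyl hydroxylase that modifies collagen, rose from 3.56 and 6.02 CPM to 11.4 and 11.5 CPM (log2 fold change 1.26, SE 0.22, adjusted p = 0.00298 by edgeR). Lamc1, a laminin gamma chain, rose from 36.6 and 34.5 to 46.2 and 49.0 CPM, and Col27a1, a fibrillar collagen, fell from 6.39 and 4.47 to 2.81 and 3.28 CPM. The calls of Lamc1 and Col27a1 were lost without either TSLP library (adjusted p up to 0.147 and 0.120 by edgeR), while Plod2 kept its call in each of these fits.

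Matrix proteases and their inhibitors, the family of Adam8, had 1 gene called higher and 1 lower of 31 in the lung, with a median of 0.01. Adam33, a metalloprotease of the same family as Adam8, stood at 7.34, 10.9 and 2.55 CPM in lung control and 41.8, 26.2 and 44.0 CPM in lung Crlf2-deleted libraries (log2 fold change 2.58, SE 0.49, adjusted p = 0.0459 by edgeR). Furin, the protease that activates many secreted precursors, stood at 327, 343 and 366 CPM in control and 206, 148 and 216 CPM in Crlf2-deleted libraries (log2 fold change -0.86, SE 0.16, adjusted p = 0.0411 by edgeR). Neither call was firm: leaving out 1 library at a time gave an adjusted p of 0.0141 to 0.241 for Adam33 and 0.0336 to 0.190 for Furin by edgeR, and the call was lost in 9 and 12 of 18 alternatives.

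With TSLP in the spleen, 6 of 25 protease and inhibitor genes rose and 4 fell, with a median of 0.11. Timp2, a metalloprotease inhibitor, fell from 52.5 and 49.7 to 24.8 and 25.6 CPM (log2 fold change -1.02, SE 0.10, adjusted p = 0.000219 by edgeR). Adam9 rose from 8.36 and 8.30 to 14.7 and 14.7 CPM (0.82, SE 0.12). Furin rose from 41.4 and 38.7 to 52.6 and 57.4 CPM (0.46, adjusted p = 0.00707 by edgeR, 0.122 without TSLP replicate 2). Adam8 itself was not called in that comparison.

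CCN family and Wnt target genes, the group of Wisp1, had 0 of 18 called in the lung (2 higher and 3 lower at an unadjusted p of 0.05, 1 higher and 2 lower by DESeq2), with a median of -0.14. With TSLP in the spleen, 9 of 22 rose and 3 fell, with a median of 0.44. Ctnnb1, which encodes beta-catenin, rose from 148 and 163 to 255 and 262 CPM (log2 fold change 0.73, SE 0.09). Tcf7, a transcription factor that acts with beta-catenin, rose from 87.8 and 105 to 167 and 185 CPM (0.87, SE 0.11). Myc, a growth-promoting transcription factor, rose from 158 and 209 to 335 and 347 CPM (0.89, SE 0.13). All 3 had an adjusted p of at most 0.00129 by edgeR, while Wisp1 was not called in the same libraries.

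Matrix receptors and CIB family genes, the group of Cib2, had 1 gene called higher and 0 lower of 23 in the lung, with a median of -0.16. That gene was Itgb8, whose integrin activates latent TGF-beta and which is known from regulatory T cells. It stood at 2.94, 5.47 and 3.58 CPM in lung control and 19.0, 19.8 and 18.3 CPM in lung Crlf2-deleted libraries (log2 fold change 2.33, SE 0.35, adjusted p = 0.0232 by edgeR, 0.0166 to 0.172 with 1 library left out, and lost in 6 of 15 alternatives). With TSLP in the spleen, 4 of 24 rose and 4 fell, with a median of -0.002. Cib1, another gene of the CIB family, fell from 69.3 and 78.7 to 47.1 and 41.0 CPM (-0.75, SE 0.11, adjusted p = 0.00142 by edgeR, a call lost in 4 of 17 alternatives). Itgb1, the shared integrin beta chain, rose from 85.9 and 88.4 to 138 and 137 CPM (0.66, SE 0.08). Rpsa, a ribosomal protein that also serves as a laminin receptor and has many near-identical copies in the genome, fell from a mean of 12000 to 5051 CPM (-1.25, SE 0.10).

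Proteoglycan genes, the class of Esm1, had 0 of 13 called in the lung (2 higher and 2 lower at an unadjusted p of 0.05, 1 higher and 1 lower by DESeq2), with a median of -0.10. With TSLP in the spleen, 1 of 12 rose and 4 fell, with a median of -0.06. Gpc6, a glypican, fell from 5.34 and 2.15 to 0.401 and 0.478 CPM (-3.07, SE 0.47, adjusted p = 0.00152 by edgeR). Ncan, which encodes neurocan, fell from 2.13 and 0.878 to 0.0802 and 0.177 CPM (-3.43, SE 0.60). Tgfbr3, the proteoglycan co-receptor of TGF-beta, rose from 37.1 and 34.6 to 47.5 and 49.4 CPM (0.43, SE 0.10, adjusted p = 0.00752 by edgeR, up to 0.110 with 1 library left out).

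Angiogenic factors and receptors, whose vessels Esm1 and endostatin are known to act on, had 0 of 22 called in the lung (2 higher and 3 lower at an unadjusted p of 0.05, 1 higher by DESeq2), with a median of 0.03. With TSLP in the spleen, 5 of 20 rose and 4 fell, with a median of 0.11. Hif1a, the hypoxia-inducible factor, rose from 149 and 168 to 340 and 351 CPM (1.13, SE 0.09). Egln3, a prolyl hydroxylase that acts on it, rose from 45.7 and 56.6 to 136 and 137 CPM (1.42, SE 0.12). Vegfa, the main vascular growth factor, rose from 19.4 and 17.7 to 32.4 and 33.0 CPM (0.81, SE 0.10, adjusted p = 0.000676 by edgeR). Esm1, known as a gene that VEGF-A raises in endothelial cells, had 0 reads in both of these TSLP libraries.

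**Figure D4:**
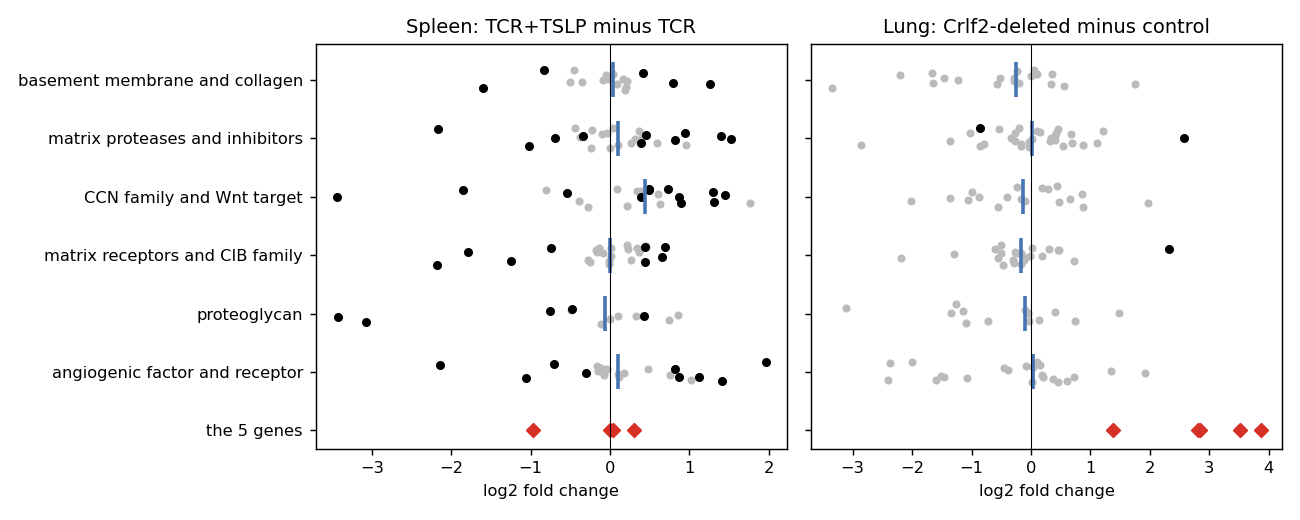
Log2 fold change of each tested gene of 6 gene lists and of the 5 genes (red diamonds) in spleen and in lung, with black points for genes called by edgeR, grey points for the others and a blue bar at the list median. In the lung the list medians lie between -0.25 and 0.03 and 3 genes are called, while in spleen the 4 tested members lie between -0.97 and 0.30 amid 49 called list genes.

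The genes whose log2 CPM was most like that of each member over the 10 libraries, among 14571 genes, are named by Pearson's r, as a description: most of the variation shared by these points is that between tissues. Esm1 was most like Tmem181a (r = 0.994), Gpnmb (0.993) and Rfx1 (0.993). Gpnmb, which encodes a transmembrane glycoprotein of macrophages and other cells, went from a mean of 23.9 CPM in lung control to 158 CPM in lung Crlf2-deleted libraries. Col18a1 was most like Tm4sf19 (0.990), Esm1 (0.988) and Tmem181b-ps (0.986). Tmem181a and Tmem181b-ps are near-identical copies whose reads the counting may have split. Cib2 was most like Matn2 (0.988), ChkbCpt1b (0.987) and Calca (0.987), and Calca, the calcitonin and CGRP gene, went from 7.19 to 55.1 CPM. Adam8 was most like Laptm5 (0.998), Arhgap31 (0.996) and Mau2 (0.996). Wisp1 had the weakest best matches, Polrmt (0.950), Leprot (0.945) and Slc36a1 (0.939).

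Between members over the 10 libraries, r ranged from 0.933 to 0.988 among Esm1, Col18a1, Cib2 and Adam8, and from 0.486 to 0.745 between Wisp1 and each of these. With each tissue's mean subtracted, where the lung groups set most of the variation, r was between 0.858 and 0.957 for the pairs with Wisp1 and between 0.822 and 0.979 for the other pairs. Since all 5 genes were chosen for higher levels in the same lung libraries, high values of r on this scale follow in part from that choice. On this scale Esm1 was most like Klc2 (0.993), Slc37a2 (0.991) and Zfp949 (0.981), and Col18a1 was most like Ppp1r9b (0.980), Esm1 (0.979) and Lgmn (0.976). Wisp1 was then most like Gpnmb (0.984), Pi4k2a (0.966) and Fam134a (0.966). Cib2 was most like Hsd17b14 (0.957), Icam4 (0.953) and Dpp7 (0.947), and Adam8 most like Pkd2l2 (0.981), Fstl3 (0.976) and Pde4a (0.973).

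On either side of each of the 5 genes, the nearest gene that passed the lung filter was taken, and nearer genes that did not pass were skipped. Of the 10 genes taken, 0 were called by edgeR in the same lung libraries (2 higher and 0 lower at an unadjusted p of 0.05, 1 higher by DESeq2). Ndrg1, 6117 bases from Wisp1, came closest, at 42.0 CPM in lung control and 87.1 CPM in lung Crlf2-deleted libraries (log2 fold change 1.03, SE 0.22, adjusted p = 0.0653 by edgeR). Slc19a1, 1746 bases from Col18a1, had a log2 fold change of 0.35 (SE 0.28), and Tubgcp2, 748 bases from Adam8, one of 0.05 (SE 0.18). On the other side of Adam8, 177 bases away, 6430531B16Rik held a mean of 0.377 and 1.64 CPM (1.69, SE 1.17). Gzmk, 28694 bases from Esm1 and a granzyme gene of cytotoxic lymphocytes, stood at 2.11 and 5.90 CPM (1.61, SE 0.85), and Dmxl2, 42928 bases from Cib2, at 5.07 and 19.0 CPM (1.83, SE 0.70), both with wide errors. The remaining 4 (Snx18, Gm10941, Tg and Idh3a) lay between -0.20 and 0.22.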

How the data were processed

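RNA from mouse regulatory T cells was sequenced in 10 libraries, and the labels gave each library's group and replicate number. The authors deposited, per the file headers, whole read counts and RPKM values for 31682 transcript rows per library on the mm10 build. TopHat2 2.2.1, edgeR, bedtools 2.25.0, Bowtie2 2.2.6 and SAMtools 0.1.8 are named in the submitters' processing notes. No source used here says how reads were counted, by strand or when multimapping. The deposited RPKM refer to a library total of which gene rows held 37.8% to 44.5% in spleen and 14.9% to 23.6% in lung, so RPKM were not compared across tissues. Per the labels' protocols, TCR-stimulated cells were prepared with a stranded, ribosomal RNA-depleting kit and read as single ends. The kit of the lung libraries is not stated separately.

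Each of 23992 symbols was represented by its row with the most reads on average, and 4343 had several rows. Counts were tested within each tissue with edgeR 4.0.16 in R 4.3.3 (TMM, filterByExpr with a minimum count of 10, robust quasi-likelihood test, two-sided), with Benjamini-Hochberg adjustment over all genes tested and a threshold of 0.05. SE is the log2 fold change divided by the root of F. Counting limits use 3 counts and 95% exact Poisson intervals and cover counting error only. DESeq2 1.42.0, limma 3.58.1 on log2(RPKM + 1) and log2(RPKM + 0.1), other scalings, no filter, moderation that was not robust, 1 fit over all 4 groups, a mean RPKM of at least 1, summed transcripts, removal of a length trend (loess span 0.3), a replicate block and leaving out each library were the alternatives. Data were simulated from these means and the trend of dispersion with read level, without dispersions of single genes or a library set apart. There edgeR recovered 79 of 100 genes with 2-fold and 97 of 100 with 4-fold changes in the spleen design (13065 genes). In the lung design (12466 genes) it recovered 32 and 73 of 100. Recovery in the real libraries may differ. Replicates differed beyond sampling noise (chi-square per degree of freedom 6.09 to 172), so all were counted.

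The 5 genes and all lists (6 of pathways, 12 of markers) were chosen with earlier results of these data known. From each pathway list and comparison, up to 3 called genes with groups that did not overlap were named by lowest p. Genes like a member were named by Pearson's r of log2 CPM (prior count 2), leaving out predicted genes, antigen receptor segments and small RNAs.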

Additional observations from a re-analysis of the deposited data

How the results depend on the processing

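Across the alternatives, the lung log2 fold changes of the 5 genes kept their sign, which the choice of the genes had set. The alternatives reuse the libraries that chose the genes, so they describe dependence on processing only. Leaving out 1 lung library at a time gave 3.66 to 4.15 for Esm1, 3.25 to 3.84 for Col18a1 and 2.36 to 3.20 for Wisp1. The same fits gave 2.68 to 3.05 for Cib2 and 1.32 to 1.45 for Adam8. On log2(RPKM + 1) the lung log2 fold changes were 1.77 for Esm1, 1.81 for Col18a1 and 1.67 for Adam8. On log2(RPKM + 0.1) Cib2 was at 3.21 and Adam8 at 1.79, and with library totals alone Adam8 was at 1.56, while these scalings moved the lung median of all genes by 0.47 and 0.182. In the spleen fits that kept all libraries, 0 members were called, except 1 with library totals alone (Adam8). No member reached a mean RPKM of 1 in the spleen. Both limma fits and the fit at that minimum therefore tested none of them, and their counts of 0 were fixed by the filter. Without TCR replicate 1, Adam8 was at 0.53 and Cib2 at -1.64. Signs near 0 turned: Col18a1 was at -0.079 with the length trend removed and -0.47 to 0.79 with 1 library left out, Wisp1 at -0.005 with DESeq2 and with median-of-ratios factors, -0.13 with the length trend removed and -0.028 to 0.035 with 1 library left out, Cib2 at -1.64 to 0.17 and Adam8, with no turn, at 0.132 to 0.53 with 1 library left out. The cause of these changes was not tested.

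Of all genes in the spleen (2999 higher and 3051 lower), library totals alone gave 5059 and 2000, limma 4973 and 962 on log2(RPKM + 1) and 4877 and 953 on log2(RPKM + 0.1), and all 4 groups in 1 fit 541 and 815. Leaving out 1 library gave 1435 to 4400 higher and 1777 to 4224 lower. These scalings moved the spleen median by 0.229, 0.32 and 0.402. Of the pathway genes in the spleen (28 and 21), library totals alone gave 45 higher, a mean RPKM of at least 1 gave 17 and 10, all 4 groups in 1 fit 4 and 4, and both limma fits 3 lower, with 12 to 43 higher and 13 to 31 lower when 1 library was left out. Fitting all 4 groups together ended the call of 12 of the 18 pathway genes named for the spleen.

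Of all genes in the lung (98 higher and 129 lower), DESeq2 gave 368 and 499, all 4 groups in 1 fit 379 and 494, limma 1207 higher on log2(RPKM + 1) and 1125 higher on log2(RPKM + 0.1), removing the length trend 41 and 55, summed transcripts 61 and 73, moderation that was not robust 63 higher and library totals alone 57 lower. Leaving out 1 library gave 2 to 252 higher and 2 to 280 lower, with the highest counts without control replicate 3. Of the lung pathway genes (2 and 1), DESeq2 gave 6 and 6, all 4 groups in 1 fit 6 and 7, both limma fits 13 and 0, removing the length trend, summed transcripts and moderation that was not robust 1 and 0, library totals alone 0 lower, a mean RPKM of at least 1 gave 3 lower and no filter 2 lower. With 1 library left out, 0 to 11 were higher and 0 to 1 lower.

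Same-numbered libraries did not deviate together (r of -0.113 in the spleen and -0.107 to 0.05 in the lung), so replicate numbers were not taken to pair samples. A replicate block gave 2839 higher and 2978 lower in the spleen with 0 members called, 32 higher in the lung, and 0 higher and 0 lower among lung pathway genes. The crossed pairing of the spleen libraries, an alternative added after seeing the data, gave 3569 higher and 3538 lower and 0 members. Depth limited Esm1, Col18a1 and Cib2 in the spleen, and the 1439675 gene reads of lung control replicate 2 limited the control values of Esm1, Wisp1 and Cib2 (5, 8 and 11 reads).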
